A study of Mus musculus with 9 samples.

Results

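Transforming growth factor beta (TGF-beta) is made as 3 ligands, encoded by Tgfb1, Tgfb2 and Tgfb3. The 10 genes described here are these ligands, the signalling receptor chains Tgfbr1 and Tgfbr2, the co-receptor betaglycan (Tgfbr3), the latent TGF-beta binding proteins Ltbp1, Ltbp2 and Ltbp3, and Tgfbi, a matrix protein first found as a TGF-beta induced transcript. They were chosen by symbol, 10 of 27207 genes in the table, and all 10 were among the 19374 genes with enough counts to be tested. RNA was sequenced from whole mouse lungs at E18.5, late in gestation, in 3 groups of 3 libraries. The groups were wild type, with no further genotype given, mutants with conditional knockout of Dnmt1 (CKO) whose lungs were hypoplastic, the weak phenotype, and CKO whose lungs were hypoplastic and bled into the parenchyma, the strong phenotype. Both CKO groups carried Tbx4-rtTA, Tet-O-Cre and the allele labelled Dnmt1-D/D. A Tbx4-rtTA and Tet-O-Cre pair is used to drive recombination in lung mesenchyme, so the epithelium and other cells of the whole lung were not its intended target. Dnmt1 encodes the enzyme that copies CpG methylation to newly made DNA. Libraries are called by their titles. WT stands for wild type, MUT_W marks weak and MUT_S strong CKO, and the numbers that follow are not explained in the sources used here.

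TGF-beta ligands are secreted in a latent form, held by their own cut propeptide. Ltbp1 and Ltbp3, and Ltbp4, link that complex to the matrix, whereas the Ltbp2 protein does not bind the latent complex and sits on fibrillin fibres. Integrins and other factors free the ligand, which binds the Tgfbr2 protein. Tgfbr2 then engages and phosphorylates Tgfbr1, and Tgfbr1 phosphorylates Smad2 and Smad3, which enter the nucleus with Smad4. Betaglycan presents ligands to Tgfbr2, above all the Tgfb2 protein, which binds that receptor weakly by itself. In the developing lung the pathway is known for its part in branching, in myofibroblast formation and in laying down matrix.

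Total counts ran from 25607595 to 33156732 per library, and each of the 10 genes had between 941 and 10969 counts in every library. A principal component with 59.1% of the variance placed the 3 wild type libraries (−76 to −66.5) apart from the 6 CKO libraries (14.4 to 49.4). Dnmt1 was at 99.1 ± 21 CPM, the count scaled to a fixed library total, in wild type, 69.6 ± 10.8 in weak CKO and 68.6 ± 8.91 in strong CKO (SD, n = 3 each), with edgeR adjusted p-values of 0.0727 and 0.0433 for the 2 CKO groups against wild type. The strong CKO call ended under 10 of 17 alternative settings, among them without WT_268_1 (−0.36), WT_549_2 (−0.54), MUT_W_268_3 (−0.53), MUT_S_265_5 (−0.46) or MUT_S_860_3 (−0.49). The lung identity markers were the lung transcription factors Nkx2-1, Tbx4 and Foxf1 and the surfactant genes Sftpc and Sftpb. The summed level of these 5 genes was 8950 to 13000 CPM in wild type, 9290 to 9950 in weak CKO and 7390 to 8740 in strong CKO. This sum is led by Sftpc (a mean of 8620 CPM in wild type). The labelled tissue was thus present in every library. Of the 5 markers, 2 were called lower in weak CKO and 5 in strong CKO, where Tbx4 was at 0.514 and Foxf1 at 0.664 times wild type.

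In the comparison of weak CKO with wild type, Tgfb3 rose and Tgfbr3 fell. In strong CKO the same 2 genes had larger estimates in the same directions, and Tgfbr2 and Tgfbi also fell. Tgfb1, Tgfb2, Tgfbr1, Ltbp1, Ltbp2 and Ltbp3 were not called in either group. Thus 2 of 10 genes were called in weak CKO, where 14.5% of all genes tested were called, 9.09% higher and 5.38% lower. In strong CKO 4 of 10 were called, where 25.6% of all genes were called, 14.6% higher and 11% lower. With both CKO groups averaged, Tgfb3, Tgfbr2, Tgfbr3 and Tgfbi were called, against 26.5% of all genes, 15.1% higher and 11.5% lower. The libraries of a CKO group and wild type did not overlap for 3 of 10 genes in weak CKO, 1 higher and 2 lower, against 31.4% of all genes (17.7% higher, 13.8% lower). In strong CKO this was so for 6 of 10 genes, 2 higher and 4 lower, against 41.7% of all genes (22.7% higher, 19% lower). With so few genes, these counts are read as a description of the members. The median log2 change of the 10 genes was −0.12 in weak CKO and −0.08 in strong CKO, beside −0.01 and 0.00 over all genes tested. The test was edgeR's quasi-likelihood test on counts with Benjamini-Hochberg adjustment over all genes tested, and log2 changes carry their standard error. Both comparisons share the 3 wild type libraries. The p-values set a difference between groups against the spread between libraries within groups. Nothing in the labels says that the lungs came from separate litters, so the libraries of a group may not be independent. Because whole lungs were sequenced, fewer cells of a type and less RNA per cell cannot be told apart.

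**Figure D1:**
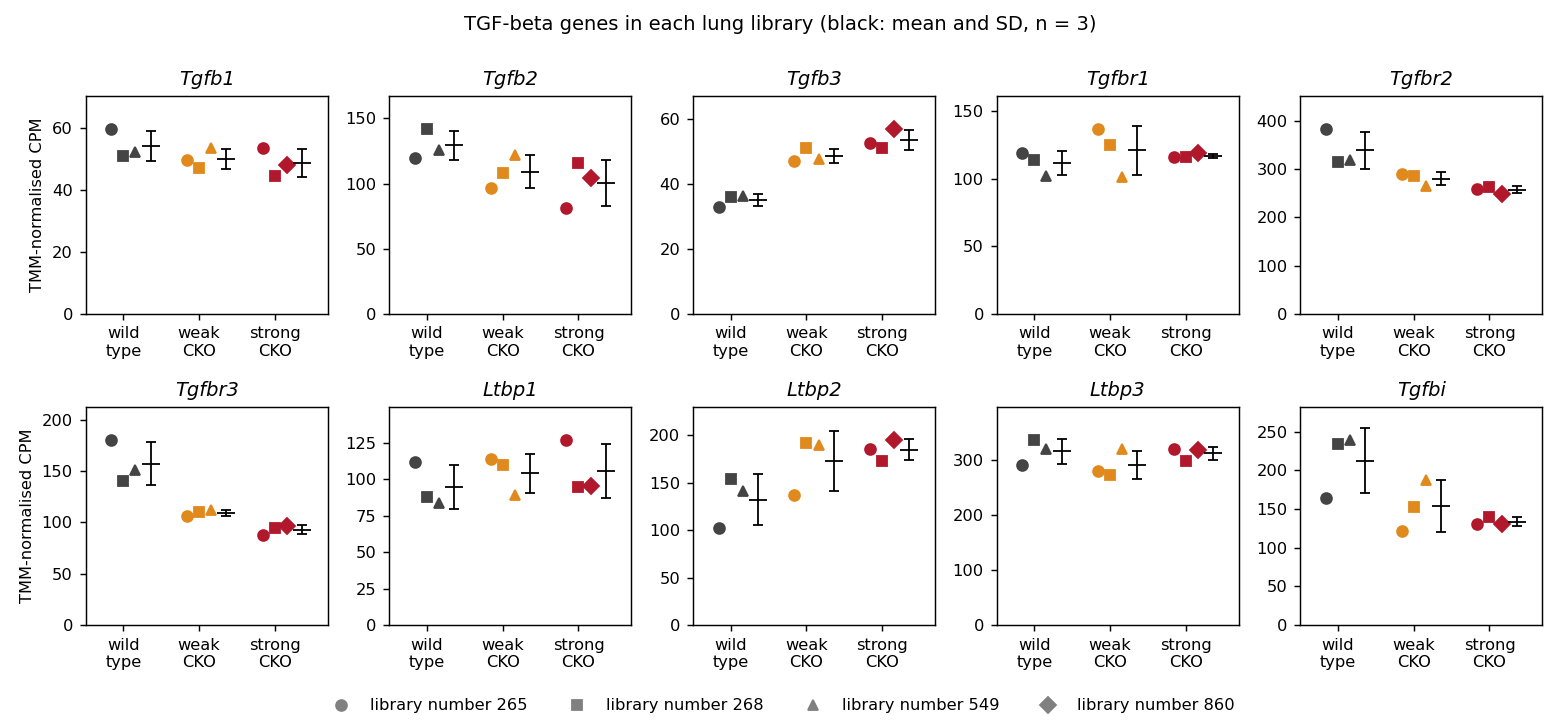
Level of each of the 10 genes in CPM (counts scaled to a fixed library total), normalised by the trimmed mean of M-values (TMM), in each of the 9 libraries, coloured by group and with a marker shape for the library number in the title; black bars are the mean and SD of 3 libraries. Tgfb3 lies higher in all 6 CKO libraries (47.0 to 57.0) than in the wild type libraries (32.8 to 36.2), and Tgfbr3 lies lower (87.7 to 112 against 140 to 180).

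Levels were compared between genes only per length, as CPM per kilobase of non-overlapping exon in the GENCODE M21 annotation. In wild type the order was Tgfbi (56.3 ± 11.1, SD, n = 3), Tgfbr2 (41.3 ± 4.69), Ltbp3 (34.7 ± 2.59), Tgfbr3 (24.0 ± 3.13), Tgfb2 (22.3 ± 1.99), Tgfbr1 (17.1 ± 1.33), Ltbp2 (16.2 ± 3.33), Tgfb1 (10.7 ± 0.954), Tgfb3 (10.4 ± 0.567) and Ltbp1 (8.86 ± 1.42). The library ranges of Tgfbi and Tgfbr2 overlapped, as did those of Tgfbr3 and Tgfb2, of Tgfbr1 and Ltbp2, of Tgfb1 and Tgfb3, and of Tgfb3 and Ltbp1. Tgfb2 was thus the most abundant ligand transcript and Tgfbr2 the most abundant receptor transcript of this set in wild type lung. In strong CKO, Tgfbr3 moved from place 4 to place 8 and Tgfb3 from place 9 to place 7, where its 3 libraries (15.1 to 16.9) lay above those of Tgfbr3 (13.4 to 14.8). The deposited gene lengths are not non-overlapping exon lengths, and deposited RPKM values, which divide by them, put the genes in another order. Ltbp3 ranked first there at 55.0 ± 4.13 RPKM in wild type. Its deposited length of 5218 bases was 0.58 times its non-overlapping exon length, whereas that of Ltbp2 was 3.19 times and that of Ltbp1 2.4 times. The exons of all 12 Ltbp3 transcripts in GENCODE M21 sum to 23879 bases, so its reads may have been counted on fewer exons. Its level per kilobase given here may then be too low, and its place in the order is uncertain. The same holds for Ltbp1, whose deposited length of 25620 bases was under the 32800 bases of its summed exons. Fold changes of a gene between groups do not depend on its length.

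**Figure D2:**
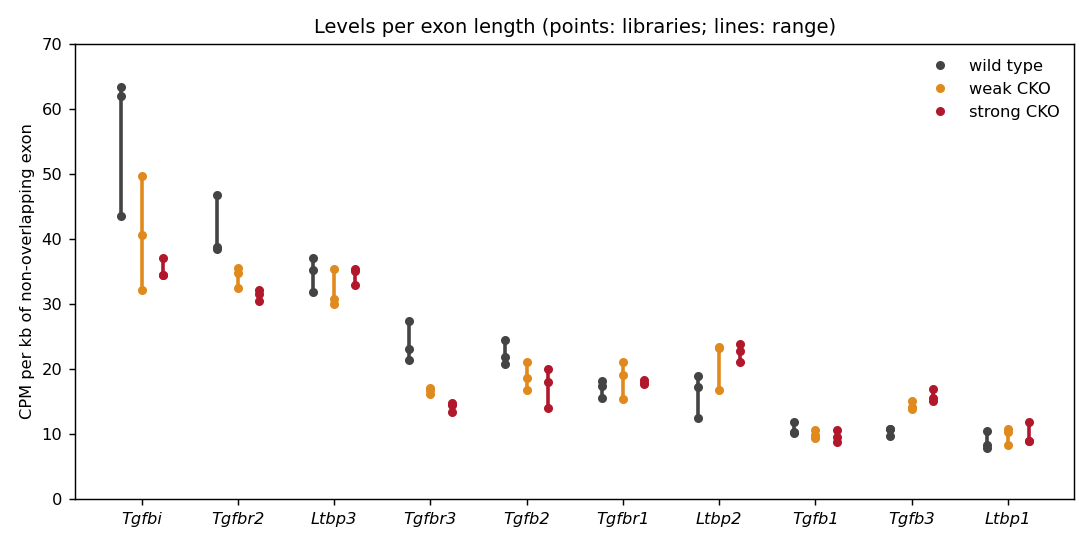
CPM per kilobase of non-overlapping exon for the 10 genes, ordered by the wild type mean; points are libraries, lines the range of the 3 libraries of a group. With GENCODE M21 lengths, Tgfbi and Tgfbr2 are highest in wild type (43.5 to 63.4 and 38.4 to 46.7) and Ltbp1 is lowest (7.85 to 10.5). The places of Ltbp3 and Ltbp1 are uncertain because their counted exons may differ.

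Among the ligands, Tgfb3 (ENSMUSG00000021253, GRCm38 chromosome 12, 86056745 to 86079041, minus strand) was the gene that changed. It was at 32.8, 36.1 and 36.2 CPM in WT_265_1, WT_268_1 and WT_549_2, at 47.0, 51.2 and 47.8 CPM in MUT_W_265_2, MUT_W_268_3 and MUT_W_549_3, and at 52.8, 51.1 and 57.0 CPM in MUT_S_265_5, MUT_S_268_4 and MUT_S_860_3. Every CKO library lay above every wild type library, and the lowest strong CKO library lay just under the highest weak CKO library. The group means were 35 ± 1.92, 48.7 ± 2.23 and 53.7 ± 3.06 CPM (SD, n = 3 each). Tgfb3 rose by 0.47 ± 0.07 on the log2 scale in weak CKO (adjusted p = 0.00209) and by 0.61 ± 0.07 in strong CKO (adjusted p = 0.000283), or 1.39-fold and 1.53-fold. Both calls held under all 17 alternative settings. Antisense partners that share exon bases with Tgfb3, Gm48008 and Gm37804, had at most 5 and 4 counts in a library. The protein-coding gene Ttll5 overlaps the locus on the opposite strand without shared exon bases and had 660 to 972 counts.

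Tgfb2 (ENSMUSG00000039239, chromosome 1, 186622792 to 186705989, minus strand) was at 120, 142 and 126 CPM in the wild type libraries, 96.8, 108 and 122 CPM in weak CKO and 81.2, 116 and 104 CPM in strong CKO, each in the order given for Tgfb3. All 3 strong CKO libraries lay below the wild type libraries, and the weak CKO range reached into the wild type range. The log2 change was −0.25 ± 0.13 in weak CKO (adjusted p = 0.255; 95% interval −0.54 to 0.05) and −0.36 ± 0.13 in strong CKO (adjusted p = 0.0696; −0.66 to −0.07). In strong CKO it was called in DESeq2 (−0.37) and without MUT_S_268_4 (−0.47). Tgfb1 (ENSMUSG00000002603, chromosome 7, 25687002 to 25705077, plus strand) was at 50.7 to 59.6 CPM in wild type, 47.0 to 53.3 in weak CKO and 44.4 to 53.5 in strong CKO. These ranges overlapped, and the changes of −0.12 ± 0.09 (95% interval −0.32 to 0.09) and −0.15 ± 0.09 (−0.35 to 0.05) were not called (adjusted p = 0.45 and 0.249). Macrophages and platelets are known sources of Tgfb1. The summed level of 8 macrophage markers was 763 to 1520 CPM in wild type. It was 1010 to 1500 in weak CKO and 806 to 1160 in strong CKO, with 4 and 5 markers up. This sum is led by Lyz2 (means of 920, 992 and 698 CPM), which was not called, nor were Mrc1 and Marco. Csf1r, Adgre1, C1qa and C1qb were called up in both groups, at 1.65, 2.12, 2.2 and 2.25 times wild type in weak CKO. In strong CKO they were at 1.48, 1.93, 2.6 and 2.76 times, and Cd68 was also called (1.61 times). The sum of 5 platelet markers was 21 to 30.2, 26.7 to 34 and 36.5 to 57.1 CPM, with 0 and 1 up. The part of macrophages and platelets in the Tgfb1 level was not tested.

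The make-up of the ligand transcripts shifted in every CKO library. Per kilobase, Tgfb3 made up 23.0% to 25% of the 3 ligand transcripts in wild type, 30.8% to 35.2% in weak CKO and 34.4% to 38.8% in strong CKO. Tgfb2 made up 49.0% to 54.2% in wild type, 41.3% to 46.1% in weak CKO and 34.8% to 45.5% in strong CKO. The wild type ranges overlapped neither CKO range for both ligands. The shares of a library sum to a fixed total, so a rise of Tgfb3 alone lowers the share of Tgfb2. Tgfb2 itself was not called by edgeR in either group, and the shares were not tested. The share of Tgfb1 was 22.2% to 28.0%, 21.7% to 24.3% and 20.1% to 26.4% in the same order of groups, and these ranges overlapped. Such shares are taken within a library and do not depend on the scaling between libraries. The 2 ligands therefore stood at 0.465 ± 0.029 Tgfb3 per Tgfb2 transcript length in wild type, 0.772 ± 0.0896 in weak CKO and 0.935 ± 0.179 in strong CKO (SD, n = 3 each), and in MUT_S_265_5 the ratio was 1.11.

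**Figure D3:**
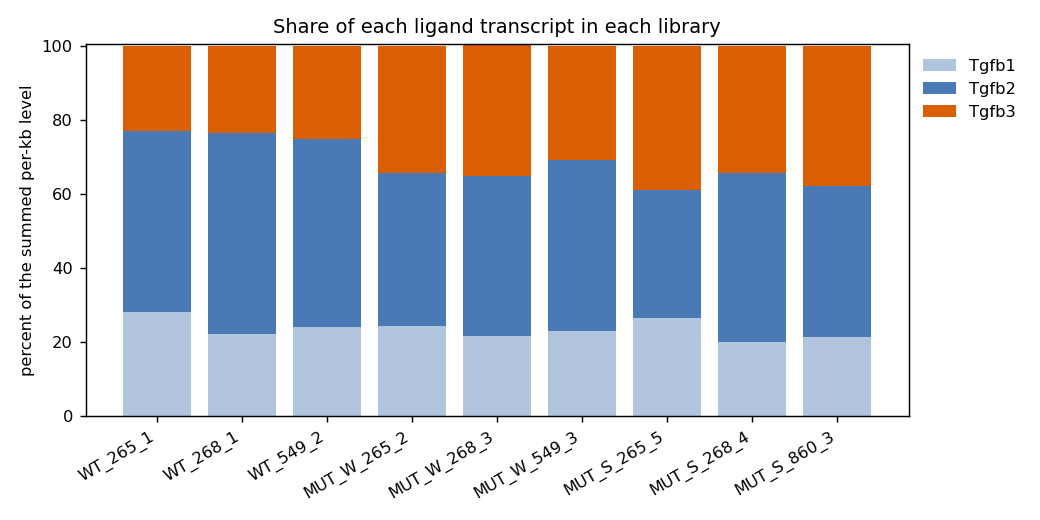
Share of Tgfb1, Tgfb2 and Tgfb3 in the summed CPM per kilobase of the 3 ligand genes, in percent, for each of the 9 libraries. The Tgfb3 segment covers 23.0% to 25% in the wild type libraries and 30.8% to 38.8% in the CKO libraries.

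The sequences before the start sites of Tgfb1 and Tgfb2 are shown because Dnmt1 acts on CpG pairs and these 2 ligands differ in them. They are the 250 bases upstream of the RefSeq start in GRCm38.p6, on the strand of the gene, with CG pairs in capitals. That of Tgfb1 is chr7:25686752-25687001 on the plus strand and that of Tgfb2 is chr1:186705990-186706239 on the minus strand.
Tgfb1: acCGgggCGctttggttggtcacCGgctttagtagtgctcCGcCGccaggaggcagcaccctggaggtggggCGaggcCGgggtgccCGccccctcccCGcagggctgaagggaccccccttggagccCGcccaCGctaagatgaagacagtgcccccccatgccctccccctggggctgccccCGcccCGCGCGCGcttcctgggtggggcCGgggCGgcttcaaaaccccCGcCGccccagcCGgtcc
Tgfb2: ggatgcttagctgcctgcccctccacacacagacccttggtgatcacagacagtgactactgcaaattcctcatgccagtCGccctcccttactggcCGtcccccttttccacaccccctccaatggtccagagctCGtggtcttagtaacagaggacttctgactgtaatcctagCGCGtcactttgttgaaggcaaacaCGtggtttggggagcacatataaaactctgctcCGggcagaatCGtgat
The Tgfb1 window holds 21 CG pairs and the Tgfb2 window 8, where the median of 32851 RefSeq windows of the same length was 6, with quartiles of 2 and 16. The Tgfb2 window holds TATAAA on the gene's strand, a string found in 7.6% of all windows, and the Tgfb1 window does not. The letters CAGAC, which Smad3 and Smad4 can bind, were searched on both strands (CAGAC or GTCTG, which can run into a CG pair) and are in 42.2% of all windows. They occur 0 times before Tgfb1 and 2 times before Tgfb2. DNA methylation was not measured in these libraries, and a match of letters is a description of the window.

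Among the receptors, the co-receptor changed most. Tgfbr3 (ENSMUSG00000029287, chromosome 5, 107106570 to 107289629, minus strand) was at 180, 140 and 151 CPM in WT_265_1, WT_268_1 and WT_549_2, at 106, 110 and 112 CPM in MUT_W_265_2, MUT_W_268_3 and MUT_W_549_3, and at 87.7, 94.3 and 96.7 CPM in MUT_S_265_5, MUT_S_268_4 and MUT_S_860_3. The 3 groups did not overlap, with strong CKO lowest. Tgfbr3 fell by 0.52 ± 0.09 on the log2 scale in weak CKO (adjusted p = 0.00367) and by 0.76 ± 0.09 in strong CKO (adjusted p = 0.000275), to 0.696 and 0.592 times the wild type level. Both calls held under all 17 alternatives. Strong against weak CKO gave −0.23 ± 0.09 with an adjusted p of 0.873, although the libraries did not overlap, as was so for 13.4% of all genes tested.

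Tgfbr2 (ENSMUSG00000032440, chromosome 9, 116084293 to 116175360, minus strand), the ligand-binding kinase, was at 46.7, 38.4 and 38.8 CPM per kilobase in wild type, 35.5, 34.8 and 32.4 in weak CKO and 31.6, 32.1 and 30.4 in strong CKO, in the same order of libraries. Again the 3 groups did not overlap. Tgfbr2 fell by 0.40 ± 0.08 on the log2 scale in strong CKO (adjusted p = 0.0061), a call that held under all 17 alternatives. In weak CKO the change was −0.27 ± 0.08, with an adjusted p of 0.0506 at the edge of the threshold and a single-gene 95% interval of −0.46 to −0.09. It was called in DESeq2 (−0.28) and without WT_268_1 (−0.32). Tgfbr1 (ENSMUSG00000007613, chromosome 4, 47353222 to 47414931, plus strand), the kinase that signals to the Smad proteins, was at 15.6 to 18.2 CPM per kilobase in wild type, 15.4 to 21 in weak CKO and 17.7 to 18.3 in strong CKO. Its ranges overlapped and its changes of 0.12 ± 0.10 (95% interval −0.11 to 0.35) and 0.07 ± 0.10 (−0.16 to 0.30) were not called (adjusted p = 0.51 and 0.658).

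The ratios between the receptor transcripts separated the CKO libraries from the wild type libraries. Per kilobase, the ratio of Tgfbr3 to Tgfbr2 was 0.556 to 0.595 in wild type, 0.455 to 0.53 in weak CKO and 0.424 to 0.485 in strong CKO. The ratio of Tgfbr2 to Tgfbr1 was 2.21 to 2.57 in wild type, 1.69 to 2.1 in weak CKO and 1.67 to 1.81 in strong CKO. In both ratios all 6 CKO libraries lay below the 3 wild type libraries. The ratios were not tested, and in weak CKO neither Tgfbr2 nor Tgfbr1 was called by edgeR. Endothelial cells and mesenchyme both express these receptors. The summed level of 6 endothelial markers was 2080 to 2680 CPM in wild type, 1840 to 1890 in weak CKO and 1350 to 1720 in strong CKO, with 3 and 6 markers down. That of 6 mesenchymal markers was 3690 to 4190, 4210 to 4440 and 4230 to 4820 CPM, a sum led by collagen genes, with 1 marker up and 3 down in each CKO group. Their part in the receptor levels was not tested.

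The upstream windows of Tgfbr1 and Tgfbr2 are shown as those of a receptor chain that was not called and of its partner that fell in strong CKO. They are chr4:47352972-47353221 on the plus strand and chr9:116175364-116175613 on the minus strand, both GRCm38.p6 from RefSeq, with CG pairs in capitals.
Tgfbr1: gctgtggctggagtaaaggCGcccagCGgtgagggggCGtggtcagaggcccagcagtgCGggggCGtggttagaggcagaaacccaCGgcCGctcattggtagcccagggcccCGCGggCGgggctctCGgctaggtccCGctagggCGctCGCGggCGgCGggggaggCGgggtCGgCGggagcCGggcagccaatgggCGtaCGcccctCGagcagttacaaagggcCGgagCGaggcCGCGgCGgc
Tgfbr2: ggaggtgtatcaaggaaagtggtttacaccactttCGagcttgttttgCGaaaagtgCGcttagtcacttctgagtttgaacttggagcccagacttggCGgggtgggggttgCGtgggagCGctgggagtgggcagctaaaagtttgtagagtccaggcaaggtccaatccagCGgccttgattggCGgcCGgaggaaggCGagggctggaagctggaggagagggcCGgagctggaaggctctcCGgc
The Tgfbr1 window holds 29 CG pairs, and 93.2% of all windows hold fewer. The Tgfbr2 window holds 12, and 66.5% of windows hold fewer. CAGAC on either strand occurs 0 times before Tgfbr1 and 1 time before Tgfbr2. RefSeq lists another Tgfbr1 start further downstream, whose window holds 3 CG pairs. The windows of Tgfb3 and Tgfbr3 are not shown here.

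None of the 3 latent TGF-beta binding protein genes was called in either comparison by edgeR, where 1 of 3, Ltbp2, had an unadjusted p under 0.05 in each. Of all 19374 genes tested, 5541 in weak CKO and 7386 in strong CKO had such a p. DESeq2 called Ltbp2 in strong CKO (0.47). Ltbp2 (ENSMUSG00000002020, chromosome 12, 84783212 to 84876532, minus strand) was at 102, 154 and 141 CPM in WT_265_1, WT_268_1 and WT_549_2, at 137, 192 and 190 CPM in MUT_W_265_2, MUT_W_268_3 and MUT_W_549_3, and at 186, 173 and 195 CPM in MUT_S_265_5, MUT_S_268_4 and MUT_S_860_3. All strong CKO libraries lay above the wild type libraries, and MUT_W_265_2 lay within the wild type range. The changes were 0.38 ± 0.17 in weak CKO (adjusted p = 0.162; 95% interval 0.01 to 0.76) and 0.48 ± 0.17 in strong CKO (adjusted p = 0.0611; 0.11 to 0.85). The strong CKO value passed the threshold without WT_268_1 (0.61) or MUT_W_265_2 (0.48), and in a fit of only the groups compared (0.49). An antisense gene, D030025P21Rik, shares 9.34% of the exon bases of Ltbp2 and had at most 38 counts in a library, against at least 2918 for Ltbp2.

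Ltbp1 and Ltbp3, whose proteins carry the latent ligand, showed no call and small estimates. Ltbp1 (ENSMUSG00000001870, chromosome 17, 75005568 to 75392512, plus strand) was at 83.9 to 112 CPM in wild type, 89.1 to 114 in weak CKO and 94.5 to 127 in strong CKO, with changes of 0.14 ± 0.15 (95% interval −0.20 to 0.48) and 0.16 ± 0.15 (−0.18 to 0.50). Ltbp3 (ENSMUSG00000024940, chromosome 19, 5740904 to 5758532, plus strand) was at 290 to 336, 272 to 320 and 298 to 320 CPM, with changes of −0.12 ± 0.08 (−0.30 to 0.06) and −0.01 ± 0.08 (−0.19 to 0.17). The groups overlapped for both genes, and adjusted p-values ran from 0.381 to 0.926. Ltbp3 was the most abundant of the 3 per kilobase in every group. Its share of the 3 transcripts was 57.8% to 58.4% in wild type, 47.0% to 52.9% in weak CKO and 50.5% to 52.4% in strong CKO, and all CKO libraries lay below the wild type libraries. The share of Ltbp2 was 22.7% to 29.4%, 28.7% to 36.8% and 32.6% to 35.2% in the same order. Such shares sum to a fixed total, so they are not separate results, and they were not tested. The size of these shares depends on the exon lengths taken for Ltbp3 and Ltbp1, which are uncertain as said above.

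Tgfbi (ENSMUSG00000035493, chromosome 13, 56609523 to 56639562, plus strand), which encodes a secreted protein that binds collagens and integrins, was at 164, 234 and 239 CPM in WT_265_1, WT_268_1 and WT_549_2, at 121, 153 and 188 CPM in MUT_W_265_2, MUT_W_268_3 and MUT_W_549_3, and at 130, 140 and 130 CPM in MUT_S_265_5, MUT_S_268_4 and MUT_S_860_3. Strong CKO lay below wild type in every library and varied little, whereas MUT_W_549_3 lay above WT_265_1. Tgfbi fell by 0.67 ± 0.17 on the log2 scale in strong CKO (adjusted p = 0.0202), to 0.627 times wild type. In weak CKO the change was −0.46 ± 0.17 (adjusted p = 0.112; 95% interval −0.85 to −0.07). The strong CKO call ended without WT_268_1 (−0.60), WT_549_2 (−0.58), MUT_S_265_5 (−0.65) or MUT_S_860_3 (−0.65). The weak CKO value passed the threshold without WT_265_1 (−0.62) or MUT_W_549_3 (−0.63), and in DESeq2 (−0.47). Its upstream window is shown up to the first annotated transcript start in GENCODE M21, 187 bases at chr13:56609336-56609522 on the plus strand in GRCm38.p6 from RefSeq, with CG pairs in capitals, because this gene bears the name of the pathway's response and fell.
Tgfbi: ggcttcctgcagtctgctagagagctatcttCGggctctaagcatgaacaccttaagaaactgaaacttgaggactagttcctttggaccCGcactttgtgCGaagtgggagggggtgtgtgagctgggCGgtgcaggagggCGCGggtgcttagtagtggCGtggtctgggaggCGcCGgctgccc
These bases hold 9 CG pairs. The full 250 bases hold 15, and CAGAC on either strand occurs 2 times in them.

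**Figure D4:**
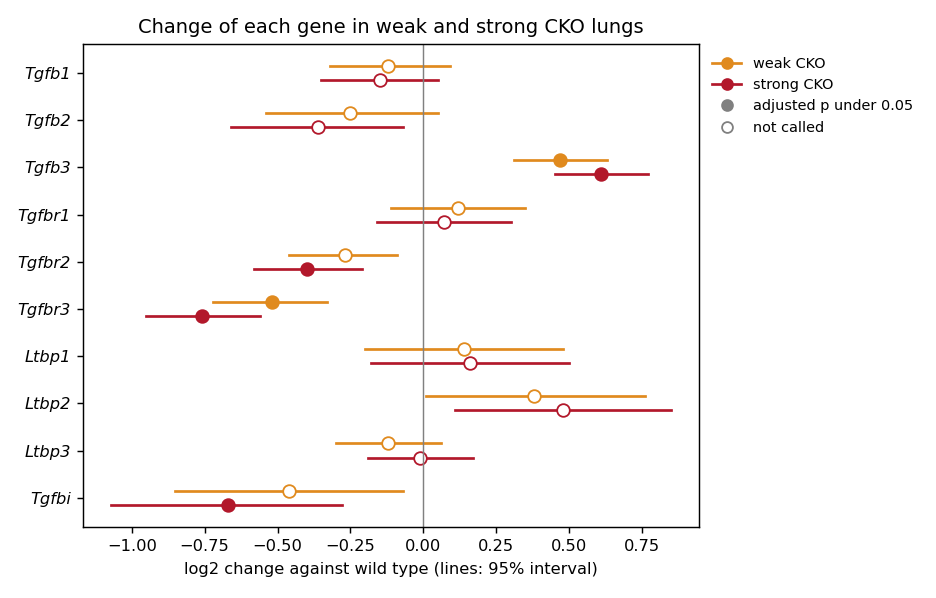
Log2 change of each gene against wild type in weak CKO (orange) and strong CKO (red), with the 95% interval of each gene taken alone; filled points have an adjusted p under 0.05 over all genes tested. Tgfb3 lies to the right of 0 (0.47 and 0.61) and Tgfbr3 to the left (−0.52 and −0.76), both filled in both groups, and Tgfbr2 and Tgfbi are filled in strong CKO.

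The comparison of strong with weak CKO asked whether the lungs with haemorrhage differed further. By edgeR 0 of the 10 genes were called, where 0.00516% of all genes tested, 1 gene, were called. Of the 10, 1 gene, Tgfbr3, had an unadjusted p under 0.05, as did 1099 of all 19374 genes tested. DESeq2 and limma on log2(RPKM + 1) also called 0 of the 10. The estimates ran from −0.23 for Tgfbr3 to 0.14 for Tgfb3, and the 95% intervals reached −0.60 for Tgfbi and 0.47 for Ltbp2, so differences of that size could not be told from 0 with 3 libraries a group. Libraries did not overlap for Tgfbr2 and Tgfbr3, 2 of 10 genes, both lower in strong CKO, against 13.4% of all genes, 6.7% higher and 6.73% lower. The summed level of 7 erythroid markers was 6760 to 12700 CPM in strong CKO and 3780 to 4390 in weak CKO, and 3950 to 7400 in wild type. The top value was that of MUT_S_860_3, with 7070 in MUT_S_265_5 and 6760 in MUT_S_268_4. Of the 7 markers, 0 were called in any comparison of the groups. The part of the erythroid level in these estimates was not tested.

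The other genes of the pathway were counted by role, 74 in all, and all 74 were tested. In weak CKO 11 rose and 7 fell, and in strong CKO 14 rose and 14 fell, with medians of −0.01 and −0.04. As shares, 18 of 74 and 28 of 74 stand beside 14.5% and 25.6% of all genes tested. The weak CKO count was 7 without WT_549_2, 7 without MUT_W_265_2 and 6 without MUT_W_268_3, and the strong CKO count was 13 without MUT_S_265_5. Of these calls, 6 in weak CKO and 10 in strong CKO held under every alternative. They were Fn1, Itgb8, Dcn, Pmepa1, Tgfb1i1 and Cnn1 in both groups, and Acvrl1, Eng, Col1a2 and Col3a1 in strong CKO. Between strong and weak CKO edgeR called 0 of 74, and DESeq2 called 1. By edgeR 5 of 74 had an unadjusted p under 0.05, beside 1099 of all 19374 genes tested.

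Among 18 genes for the latent complex, its matrix anchors and its activators, 2 rose and 2 fell in weak CKO and 3 rose and 3 fell in strong CKO (medians −0.05 and −0.12). Itgb8, a subunit of an integrin that frees TGF-beta from its latent complex, went from 2.38 ± 0.672 CPM in wild type to 6.77 ± 0.569 in weak and 8.49 ± 1.32 in strong CKO, a rise of 1.51 ± 0.20 and 1.83 ± 0.20 on the log2 scale (edgeR adjusted p = 0.00102 and 0.000209). Its level is low, and on the log2(RPKM + 1) scale, which understates changes of low genes, the changes were 0.32 and 0.42. Fn1, the fibronectin gene, went from 5640 ± 1290 CPM to 2360 ± 570 and 1900 ± 82.0 CPM (−1.26 ± 0.20 and −1.57 ± 0.20; edgeR adjusted p = 0.00268 and 0.00047). Also named by the rule were Emilin1, which encodes a matrix protein that holds back the processing of the TGF-beta precursor, and Thbs1, an activator of the latent complex. Emilin1 was called in weak CKO (0.23) and in strong CKO (0.19). Its weak CKO call ended under 5 of 17 alternatives, in a fit of only the groups compared (0.23) and without WT_265_1 (0.20), WT_549_2 (0.23), MUT_W_268_3 (0.23) or MUT_W_549_3 (0.21), and its strong CKO call under 7 of 17, among them the fit of only the groups compared (0.20) and without WT_265_1 (0.16), WT_549_2 (0.19), MUT_S_265_5 (0.21), MUT_S_268_4 (0.20) or MUT_S_860_3 (0.18). Thbs1 was called in strong CKO (0.74), a call that ended under 4 of 17 alternatives, among them without WT_265_1 (0.66), WT_549_2 (0.65) or MUT_S_265_5 (0.65). Further calls, chosen for mention once the values were known, were the myeloid latency gene Nrros in weak CKO (−0.57) and the integrin subunit genes Itgav (−0.19) and Itgb6 (−0.40) in strong CKO. The Nrros call ended under 6 of 17 alternatives, on log2(RPKM + 1) (−0.39) and log2(RPKM + 0.1) (−0.54) and without WT_549_2 (−0.43), MUT_W_265_2 (−0.47), MUT_W_268_3 (−0.55) or MUT_S_268_4 (−0.57). The Itgav call ended under 13 of 17 alternatives and the Itgb6 call under 9 of 17, with values from −0.22 to −0.15 and from −0.53 to −0.33 over all 17.

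Among 11 co-receptors and ligand traps, 1 rose and 2 fell in each CKO group (medians −0.07 and −0.05). Dcn, which encodes decorin, a proteoglycan that binds TGF-beta, rose from 29.1 ± 3.39 CPM to 75.4 ± 5.03 in weak CKO and a mean of 114 in strong CKO (1.37 ± 0.13 and 1.96 ± 0.13; edgeR adjusted p = 0.000103 and 9.41e-06). The endothelial receptor gene Acvrl1 went from 300 ± 57.8 CPM to 204 ± 18.6 and 157 ± 22.2 CPM (−0.55 ± 0.15 and −0.93 ± 0.15; edgeR adjusted p = 0.0357 and 0.00205). Eng, which encodes the co-receptor endoglin, went from 147 ± 4.58 CPM to 118 ± 10.1 and 112 ± 10.1 CPM (−0.32 ± 0.08 and −0.39 ± 0.08; edgeR adjusted p = 0.0282 and 0.0066). The weak CKO call of Acvrl1 ended under 8 of 17 alternatives, among them on log2(RPKM + 1) (−0.49) and log2(RPKM + 0.1) (−0.53) and without WT_265_1 (−0.44), WT_549_2 (−0.50), MUT_W_265_2 (−0.51), MUT_W_268_3 (−0.52) or MUT_S_860_3 (−0.55), and that of Eng without WT_549_2 (−0.29), MUT_W_265_2 (−0.29) or MUT_W_268_3 (−0.27). Both encode endothelial proteins, and the endothelial marker sum given above was also lower in both CKO groups. The part of that sum in the levels of Acvrl1 and Eng was not tested.

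Among 9 genes listed as Smad mediators, 1 rose and 1 fell in weak CKO (median −0.02). In strong CKO 1 rose and 2 fell (median −0.05). The list also holds Map3k7 and Tab1, which act in a branch without Smad proteins, and the riser was Map3k7. Smad2, Smad3 and Smad4, named after their values were seen, had log2 changes from −0.07 to 0.05 in both groups, and their 95% intervals lay between −0.27 and 0.21. The kinase gene Map3k7 was called up (0.33 and 0.32), the coactivator gene Crebbp down (−0.23 and −0.23), and its relative Ep300 down in strong CKO (−0.30). In weak CKO the Map3k7 call ended in a fit of only the groups compared (0.34) and without WT_549_2 (0.27), MUT_W_265_2 (0.30) or MUT_W_268_3 (0.28), and the Crebbp call in that fit (−0.23) and without any of 5 libraries (values from −0.25 to −0.20), namely WT_268_1, WT_549_2, MUT_W_265_2, MUT_W_268_3 or MUT_W_549_3. In strong CKO the Map3k7 call ended without WT_549_2 (0.26), MUT_S_265_5 (0.32) or MUT_S_860_3 (0.31), and the Crebbp (−0.21) and Ep300 (−0.27) calls without MUT_S_265_5.

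Among 11 inhibitors of the pathway, 1 rose in weak CKO, and 1 rose and 3 fell in strong CKO (medians −0.01 and −0.14). The riser in both was Pmepa1, a TGF-beta induced gene whose product holds Smad2 and Smad3 away from the receptor. It was at 31.5, 41.2 and 40.8 CPM in WT_265_1, WT_268_1 and WT_549_2, 106, 94.9 and 95.9 CPM in MUT_W_265_2, MUT_W_268_3 and MUT_W_549_3, and 137, 104 and 126 CPM in MUT_S_265_5, MUT_S_268_4 and MUT_S_860_3, a rise of 1.39 ± 0.13 and 1.69 ± 0.13 (edgeR adjusted p = 9.35e-05 and 2.24e-05). The strong CKO falls were in the phosphatase gene Ppm1a (−0.24), the inhibitory Smad gene Smad6 (−0.43) and the ubiquitin ligase gene Smurf2 (−0.24). They ended under 3, 4 and 12 of 17 alternatives, among them without MUT_S_265_5 (−0.21, −0.46 and −0.20) or without MUT_S_860_3 (−0.22, −0.36 and −0.23). That of Smad6 also ended without WT_265_1 (−0.35), and that of Smurf2 also without WT_265_1 (−0.20), WT_268_1 (−0.22), MUT_W_268_3 (−0.24) or MUT_W_549_3 (−0.24).

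Among 25 genes listed as targets of the pathway, 6 rose and 2 fell in weak CKO and 8 rose and 4 fell in strong CKO (medians 0.04 and 0.18). The contractile gene Cnn1 went from 3.33 ± 1.12 CPM to 8.11 ± 0.986 and 8.76 ± 1.64 CPM (1.29 ± 0.23 and 1.40 ± 0.23; edgeR adjusted p = 0.00557 and 0.00209), and on log2(RPKM + 1) its changes were 0.60 and 0.67. The collagen genes Col1a2 (1290 ± 187 to 1810 ± 51.3 and 1900 ± 160 CPM; 0.49 ± 0.11 and 0.56 ± 0.11) and Col3a1 (0.35 ± 0.10 and 0.45 ± 0.10) were called up in both groups. Tgfb1i1, a coactivator gene named for its induction by TGF-beta, fell from 127 ± 7.94 to 86.5 ± 12.8 and 76.2 ± 8.48 CPM (−0.56 ± 0.11 and −0.74 ± 0.11; edgeR adjusted p = 0.00962 and 0.00125). In weak CKO the Col1a2 call ended without WT_549_2 (0.43), MUT_W_265_2 (0.47) or MUT_W_268_3 (0.51), and the Col3a1 call in a fit of only the groups compared (0.36) and without WT_268_1 (0.37), WT_549_2 (0.31), MUT_W_265_2 (0.34), MUT_W_268_3 (0.31) or MUT_S_860_3 (0.36). Named after their values were seen, Snai2 was the other gene that fell in weak CKO (−0.49), and Snai2 (−0.51), Postn (−0.79) and Lox (−0.31) were the others that fell in strong CKO. The Snai2 call ended in weak CKO in that fit (−0.48) and without WT_268_1 (−0.48), WT_549_2 (−0.42), MUT_W_265_2 (−0.38) or MUT_W_268_3 (−0.44), and in strong CKO without WT_549_2 (−0.44) or MUT_S_265_5 (−0.45). The strong CKO calls of Postn and Lox ended under 4 and 6 of 17 alternatives, among them without WT_268_1 (−0.75 and −0.23), MUT_S_265_5 (−0.61 and −0.30) or MUT_S_860_3 (−0.75 and −0.33), and that of Lox also without MUT_S_268_4 (−0.27) and in the fit of only the groups compared (−0.30). The list mixes genes that other signals also drive, and it holds contractile and collagen genes that mark cell types. The sum of 5 smooth muscle markers, of which Acta2, Tagln and Cnn1 are in this list, was 213 to 318 CPM in wild type, 349 to 465 in weak CKO and 362 to 599 in strong CKO. Its part in the target counts was not tested.

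**Figure D5:**
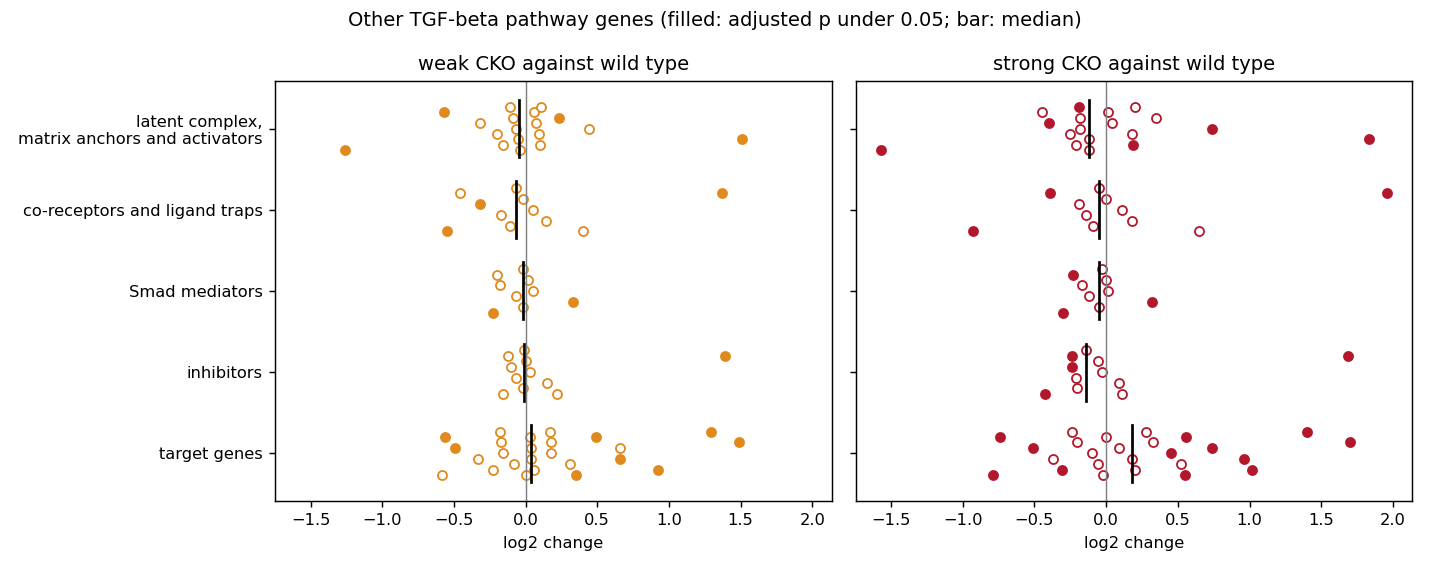
Log2 change against wild type of the 74 other pathway genes by role, in weak CKO (left) and strong CKO (right); filled points have an adjusted p under 0.05, black bars are list medians, and vertical offsets only separate points. Every median lies between −0.14 and 0.18, and Fn1 (−1.26 and −1.57) is the lowest point in both panels.

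By a rule on likeness, the 2 genes with the highest Pearson r of log2 CPM over the 9 libraries were taken for each of the 10 genes, among 13075 other genes. The libraries share the split into wild type and CKO, and r is given as a description. Tgfb3 was most like Spcs3, a signal peptidase subunit gene (r = 0.995), and Igdcc4 (0.992). Tgfbr3 was most like the lipid phosphatase gene Plpp3 (0.993) and Enpp2, which encodes autotaxin (0.991). These 4 genes were called in both CKO groups, Spcs3 at 0.31 and 0.38, Igdcc4 at 1.02 and 1.29, Plpp3 at −0.45 and −0.63, and Enpp2 at −1.40 and −1.92. Tgfbr2 was most like Stard5 (0.989) and Mocs1 (0.982), and Tgfbi most like Olfml1 (0.981) and the connexin gene Gjc1 (0.972). Tgfb2 was most like the semaphorin receptor gene Plxnc1 (0.984) and Mpp2 (0.965). For Tgfb1, Tgfbr1, Ltbp1, Ltbp2 and Ltbp3 the highest r was 0.975, 0.957, 0.978, 0.968 and 0.922, with Wdtc1, Snx14, Mall, Klhl12 and Col27a1.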

How the data were processed

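RNA from whole lungs was sequenced in 9 libraries, 3 per group. The submitters' processing notes name the genome GRCm38.p6 and the tools STAR, Trimmomatic 0.36, cutadapt 2.5, edgeR 3.28.1 and FastQC 0.11.8. Which program counted reads, on what annotation and with or without strand is not given in the sources used here. Reads where genes overlap therefore cannot be assigned with certainty. The authors deposited 1 table with counts per gene, not normalised, and RPKM values, in which a count was divided by gene length and by a library size that exceeded the sum of its column 1.03 to 1.13 times. The deposited length equalled the exon length summed over all GENCODE M21 transcripts plus 1 base per exon for 96.4% of genes, though not for Ltbp1 and Ltbp3, so levels were recomputed per kilobase of non-overlapping exon.

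Counts were tested with edgeR 4.0.16 in R 4.3.3: genes kept by filterByExpr, TMM factors (0.938 to 1.04), a mean for each group, robust quasi-likelihood dispersion over the 9 libraries together, two-sided tests and Benjamini-Hochberg adjustment over 19374 genes at a threshold of 0.05. A standard error is the unshrunk change divided by the root of its F statistic. The common biological coefficient of variation was 0.15. The 17 alternatives were DESeq2 1.42.0, upper quartile factors, haemoglobin and mitochondrial genes left out, no filter, only the groups compared, limma 3.58.1 on log2(RPKM + 1) and log2(RPKM + 0.1), the library number as a block, and each library left out. The scripts were tested on simulated data. An exact permutation test of 3 against 3 cannot go below p = 0.1 and was not used.

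The 10 genes and all lists were chosen with earlier results of these data known. Genes named were the 10 members, Dnmt1, up to 4 called genes with the smallest adjusted p in either CKO group per role list, and the 2 genes most like each member with a mean log2 CPM of at least 1 and prior count of 2; others are said to be named afterwards. RefSeq upstream windows in GRCm38.p6 matched 8 of the 10 genes. Markers are those fixed in the lists for macrophages, platelets, erythroid cells, endothelium, epithelium, mesenchyme, smooth muscle, mesothelium, lymphocytes and lung identity. The epithelial sum was 9600 to 13600 CPM in wild type, 9920 to 10900 in weak CKO and 8570 to 9500 in strong CKO, the mesothelial sum 852 to 1620, 809 to 1220 and 859 to 1320, and the lymphocyte sum at most 1.76.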

Additional observations from a re-analysis of the deposited data

How the results depend on the processing

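The directions of Tgfb3, Tgfbr2, Tgfbr3 and Tgfbi against wild type held under every alternative in both CKO groups. The number of the 10 genes called in weak CKO was 2 and became 4 in DESeq2 and 4 with the library number as a replicate block, where Tgfbr2 (−0.27) and Tgfbi (−0.47) were added. In strong CKO the block added Tgfb2 (−0.37). Among other pathway genes it ended the weak CKO calls of Acvrl1 (−0.55), Cdkn1a (0.66) and Thbs2 (1.53), and the strong CKO calls of Thbs1 (0.64), Emilin1 (0.19), Ppm1a (−0.20), Smad6 (−0.31), Smurf2 (−0.27), Itgav (−0.20), Acta2 (1.15), Postn (−0.73), Lox (−0.34), Cdkn1a (0.65) and Thbs2 (1.71). Leaving out 1 library gave 2 to 3 in weak CKO, 3 to 5 in strong CKO (main count 4), 3 to 5 for both CKO groups averaged (4) and 0 to 0 for strong against weak CKO. Whether the library number pairs the samples could not be decided from correlations of the deviations from the group means. Deviations within a group cancel out, so these correlations depend on each other. Same-numbered wild type and weak CKO libraries correlated at 0.299, −0.0869 and 0.346, and differently numbered ones at −0.38 to 0.0745. In pairs with a strong CKO library, same-numbered ones correlated at −0.000546 to 0.169 and differently numbered ones at −0.195 to 0.19. It is unknown what the number marks, and a factor shared by libraries of the same number was not tested. The single 860 library has a block of its own and adds nothing there. Over all genes, the count in weak CKO of 2803 ran from 1308 to 2803 with a library left out, that in strong CKO of 4969 from 3096 to 4949, and that for both averaged of 5137 from 3878 to 5144. Strong against weak CKO called 1 gene, and 1 to 4 with a library left out, 14 in DESeq2, 5 in a fit of only the groups compared, 2 on log2(RPKM + 0.1) and 3 with the library number as a replicate block. The other pathway genes called were 18 in weak CKO (6 to 19 with a library left out), 28 in strong CKO (13 to 27) and 0 between CKO groups (0 to 0), where DESeq2 called 1. The cause of these changes was not tested, apart from the loss of a library in the leave-one-out fits. For a gene that was not called, the data do not tell apart the sizes of change inside its interval.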

Other observations

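Some of the 10 genes varied with the number in the library titles, whose meaning is not known. WT_265_1 was the lowest wild type library for Tgfbi (164 CPM against 234 and 239), Ltbp2 (102 against 154 and 141) and Tgfb2 (120 against 142 and 126). MUT_W_265_2 was the lowest weak CKO library for the same 3 genes, at 121, 137 and 96.8 CPM. In strong CKO, MUT_S_265_5 was lowest for Tgfb2 (81.2 CPM) but not for Ltbp2 (186 CPM), and Tgfbi was lowest in MUT_S_860_3. Tgfbr3 had no such order: it was highest in WT_265_1 (180 CPM) but lowest in MUT_W_265_2 (106 CPM) and MUT_S_265_5 (87.7 CPM) of their groups. Ltbp1 was highest in WT_265_1, MUT_W_265_2 and MUT_S_265_5 of their groups, at 112, 114 and 127 CPM. WT_265_1 also had the highest wild type sums of the epithelial (13600 CPM), mesothelial (1620 CPM), macrophage (1520 CPM) and erythroid (7400 CPM) markers. The same was so for the endothelial (2680 CPM), platelet (30.2 CPM) and lung identity (13000 CPM) markers. Its smooth muscle sum was the lowest (213 CPM), and its mesenchymal sum (3860 CPM) lay between the others. In WT_265_1, Sftpc (10300 CPM), Msln (1230 CPM) and Lyz2 (1310 CPM) led the epithelial, mesothelial and macrophage sums. The relation between these values was not tested.

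The spread within a group differed between genes. In strong CKO the coefficient of variation of 3 libraries was 1.72% for Tgfbr1, 2.71% for Tgfbr2 and 4.25% for Tgfbi, against 17.5% for Tgfb2 and 17.5% for Ltbp1. In wild type it ran from 5.47% for Tgfb3 to 20.6% for Ltbp2.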
